A study of Mus musculus with 6 samples.

Results

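Small intestinal organoids keep an enterocyte program that takes up and converts vitamin A, and 6 genes of it are described here in the control cultures of a C/EBPα deletion experiment. The genes are Rbp2, Lrat, Bco1, Isx, Dhrs3 and Rdh10. They were listed by name, and 6 of 6 were found among the 21255 genes of the deposited table through their Ensembl identifiers. Polyadenylated RNA was sequenced in 3 libraries of each genotype, control and C/EBPα KO, from organoids treated with 4-OHT (4-hydroxytamoxifen, which activates an inducible Cre). The labels give 400 nM of 4-OHT for 2 days, whereas the study's methods give another dose. Control organoids come from C/EBPα Flox/Flox mice without the VillinCreERT2 transgene, which expresses the inducible Cre in gut epithelium, and the labels call their genotype wildtype. Both genotypes share the floxed alleles and the treatment. The age of the mice is not given in the sources used here, and no label or method says whether the 3 control cultures came from separate mice, so p-values measure the spread between these libraries.

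The columns named s1, s2 and s3 carry the numbers of the control titles and are written in capitals here. The names of the remaining 3 value columns correspond to no title and these columns were not used, so no C/EBPα KO value is given and no difference between genotypes was computed. Values are normalized counts, that is, read counts divided by 1 factor per library. Whole reads were recovered from them, with 36819530 reads on genes in S1, 32898280 in S2 and 30405545 in S3. Reads shared between genes had been divided by estimation, so for such genes the recovered reads are estimates. The tests and intervals below take them as counted reads. Cebpa, the gene deleted in the other genotype, had between 5829 and 6446 normalized counts in the control libraries. S1 stood apart from the other libraries in Xist, the RNA that coats an inactive X chromosome, with 18.9 normalized counts against 15423 in S2 and 14769 in S3. The Y-linked genes ran the other way, with Ddx3y at 1256 (S1), 67.3 (S2) and 2.3 (S3) and Eif2s3y at 1999 (S1), 105 (S2) and 11.5 (S3), and Kdm5d and Uty were likewise highest in S1 and next in S2. By these genes S1 has the pattern of male cells, and S2 and S3 have that of female cells with a low Y-linked signal that is larger in S2, so S1 and the other libraries differ in sex, which the labels do not give. Sex and the spread between S1 and the rest therefore cannot be told apart, and the means of the 6 genes without S1 are given below.

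Vitamin A reaches the gut as retinyl esters and as provitamin A carotenoids such as β-carotene. Enterocytes take up retinol, hold it on the cellular retinol-binding protein encoded by Rbp2, esterify it with lecithin retinol acyltransferase (Lrat) and export the esters in chylomicrons. The β-carotene oxygenase encoded by Bco1 cleaves β-carotene to retinal. Retinol and retinal are interconverted, with Rdh10 encoding a retinol dehydrogenase that makes retinal and Dhrs3 a retinal reductase that works in the opposite direction. Retinal is oxidised further to retinoic acid, the ligand of nuclear receptors, and the homeobox factor encoded by Isx, which retinoic acid induces, represses Bco1 and the carotenoid receptor gene Scarb1. The B27 supplement of the culture medium contains a vitamin A ester in its standard form.

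The promoters of the members with the most and the fewest reads, Rbp2 and Bco1, are shown because both hold the letters TGACCTTTGAC, which are in capitals. Both windows run from 250 bases before the start site to 50 after it and are printed 5′ to 3′ on the gene's own strand, from RefSeq on GRCm38.p6. The Rbp2 window is chr9:98490287-98490586 on the + strand and the Bco1 window is chr8:117095615-117095914 on the + strand.
Rbp2: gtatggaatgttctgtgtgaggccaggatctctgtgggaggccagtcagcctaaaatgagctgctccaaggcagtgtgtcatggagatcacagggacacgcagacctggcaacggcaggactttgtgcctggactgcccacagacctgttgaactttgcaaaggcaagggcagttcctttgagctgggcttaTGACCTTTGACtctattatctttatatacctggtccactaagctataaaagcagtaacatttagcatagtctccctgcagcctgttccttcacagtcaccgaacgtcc
Bco1: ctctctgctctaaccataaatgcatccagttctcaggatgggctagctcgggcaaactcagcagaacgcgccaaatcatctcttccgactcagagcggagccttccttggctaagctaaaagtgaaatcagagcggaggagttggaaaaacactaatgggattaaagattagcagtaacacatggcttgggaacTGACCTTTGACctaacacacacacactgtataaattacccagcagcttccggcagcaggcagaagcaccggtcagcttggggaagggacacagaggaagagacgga

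The capitals are the longest run of letters that the 2 windows share. They open with TGACCT, the reverse complement of the nuclear receptor half-site AGGTCA, and close with most of a further copy, the kind of direct repeat that receptors such as HNF4, PPAR and RXR are known to bind. Among the 10 pairs that can be made from the promoters of these genes, the longest shared run was 11 bases for Rbp2 and Bco1 and 7 to 9 bases for the other pairs, with the first of the 3 windows used for Dhrs3. In Rbp2 the match lies 58 to 48 bases before the start site, and in Bco1 it lies 56 to 46 bases before it. Of 32851 promoter windows of the same length in mouse, 12 (0.0365%) hold these letters on either strand. The 12 windows belong to 12 different genes, with Rbp2 and Bco1 among them. The run was taken from these windows and chosen after they had been read, so this share describes the windows and is no test. A promoter was found for 5 of the 6 genes, all except Rdh10. The windows of Lrat and Isx and the 3 windows of Dhrs3 hold no match. The TATA letters TATAAA were found in Rbp2 and Bco1 as well and in no window of Lrat, Isx or Dhrs3, against 13.6% of all windows. The half-site AGGTCA, whose reverse complement opens the direct repeat, has 1 match in Rbp2, inside the repeat, and 2 in Bco1, 1 inside the repeat and 1 that overlaps its end, against 16.3% of all windows with a match. The C/EBP core TTGCNNAA, searched on both strands, was found only in the overlapping windows of Dhrs3 among those of these genes, against 10.8% of all windows. The search says which letters are present and nothing about binding.

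Rbp2 had 22491 (S1), 22226 (S2) and 20503 (S3) normalized counts, with a mean of 21740 ± 1080 (SD, n = 3 control libraries). S3 was the lowest of the libraries, and S1 and S2 were nearly level. With this mean Rbp2 (ENSMUSG00000032454) stood above 98.6% of the 13803 genes whose mean reached 10 normalized counts.

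Isx (ENSMUSG00000031621) had 7099 (S1), 7262 (S2) and 7251 (S3) normalized counts, with a mean of 7204 ± 90.9 (SD, n = 3). It was the steadiest of the 6 genes, with a coefficient of variation (CV, the SD as a share of the mean) of 1.26%, close to the 1.21% that counting error alone gives at this depth. Isx stood above 93.7% of the genes tested.

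Dhrs3 (ENSMUSG00000066026), the retinal reductase gene, had 2561 (S1), 2798 (S2) and 2467 (S3) normalized counts, with a mean of 2609 ± 170.6 (SD, n = 3). S2 was the highest library. Rdh10 (ENSMUSG00000025921), encoding the enzyme of the opposite reaction, had 820.4 (S1), 878 (S2) and 812 (S3), a mean of 837 ± 35.97 (SD, n = 3). The exact 95% intervals of its libraries overlap, and the test between libraries further below did not call Rdh10. No order of the libraries is therefore read for it.

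Lrat (ENSMUSG00000028003) had 311 (S1), 300.3 (S2) and 300.4 (S3) normalized counts, with a mean of 304 ± 6.35 (SD, n = 3). Its libraries lay closer together than counting error alone would spread them, with a CV of 2.09% against 5.89%. Bco1 (ENSMUSG00000031845) was the lowest of the 6 genes, with 77.6 (S1), 82.3 (S2) and 88.6 (S3) normalized counts, with a mean of 82.8 ± 5.53 (SD, n = 3). It rests on 82, 77 and 77 reads, whose exact 95% Poisson intervals run from 61.7 to 96.3 normalized counts in S1, from 64.9 to 103 in S2 and from 69.9 to 110.8 in S3. These intervals cover counting error only, and they overlap. The test between libraries further below did not call Bco1, so no order of the libraries is read for it. Bco1 stood above 19.2% of the genes tested and Lrat above 32.4%.

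Without S1 the means were 21365 normalized counts for Rbp2, 7256 for Isx, 2633 for Dhrs3, 845 for Rdh10, 300.3 for Lrat and 85.4 for Bco1. The order of the genes was thus the same with and without S1.

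**Figure D1:**
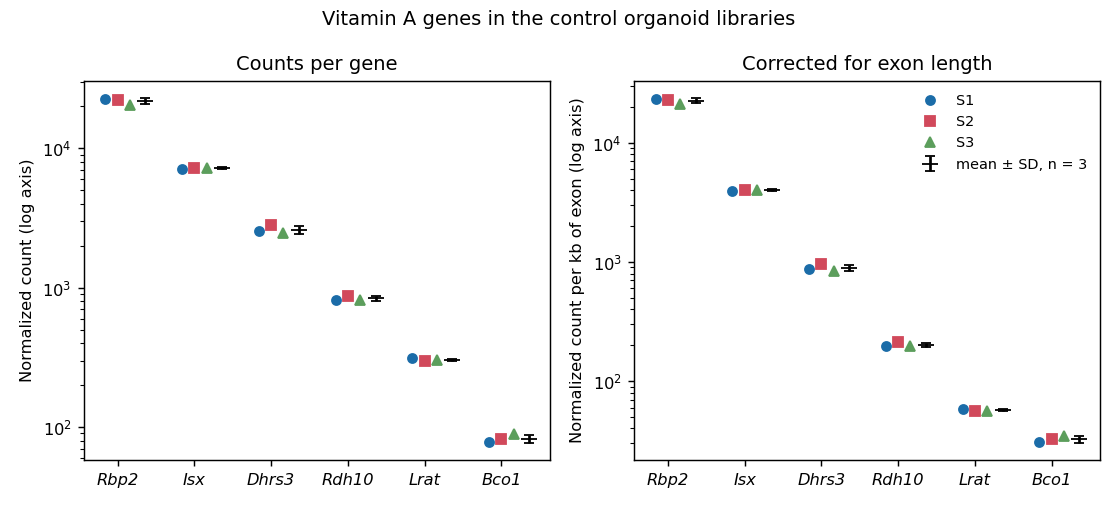
Levels of the 6 genes in the control libraries, as normalized counts per gene (left) and per kb of exon (right), both on log axes, with 1 symbol per library and the mean ± SD beside them. In both panels the genes run from Rbp2 down to Bco1, and no library of one gene reaches the level of its neighbour.

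Counts grow with the length of a transcript, so levels were compared between genes per kb of exon, with the exons of all transcripts of a gene merged. The exon length ranged from 962 bases for Rbp2 to 5351 bases for Lrat. Per kb of exon, Rbp2 had 22599 ± 1122 normalized counts (SD, n = 3), Isx 4018 ± 50.7, Dhrs3 891 ± 58.3, Rdh10 201 ± 8.65, Lrat 56.8 ± 1.19 and Bco1 32.6 ± 2.18. The order of the 6 genes was the same as for counts per gene, and the ranges of neighbouring genes did not overlap. Rbp2 stood above 99.5% of genes on this scale, Isx above 96.6%, Dhrs3 above 84.9%, Rdh10 above 53.5%, Lrat above 28.3% and Bco1 above 21.4%.

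Lrat and Bco1 were the closest neighbours, with a ratio per kb of 1.91 (S1), 1.73 (S2) and 1.61 (S3). The ratio of Isx to Bco1, the repressor gene and its known target, was 130 (S1), 125 (S2) and 116 (S3), a mean of 124 ± 6.98 (SD, n = 3). The ratio of Dhrs3 to Rdh10, the retinal reductase and the retinol dehydrogenase, was 4.44 (S1), 4.53 (S2) and 4.32 (S3). Its mean was 4.43 ± 0.106 (SD, n = 3). With the longest coding transcript as the length, the last ratio was 4.78 and the order of the 6 genes did not change. All these levels are RNA levels of a whole culture, in which fewer cells of a type and less RNA per cell cannot be told apart.

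To see how far the control libraries differed beyond counting, a chi-square test set the reads of every gene against those expected from the library factors alone. It compares these libraries and does not bear on a genotype. With a Benjamini-Hochberg adjusted p below 0.05, 2 of the 6 genes differed between libraries, Rbp2 and Dhrs3, against 40.9% of all genes tested. Isx, Rdh10, Lrat and Bco1 did not pass the threshold. The sizes were small for both genes that passed. The highest library exceeded the lowest by a factor of 1.10 for Rbp2 and 1.13 for Dhrs3. For Bco1 the difference between libraries was not detectable at its depth. The call of Rbp2 was lost without S3 and that of Dhrs3 without S2, and without S1 both kept it, with 16.8% of genes then called. The CV of the 6 genes ranged from 1.26% to 6.68% with a median of 4.63%, and the median was 6.62% over all genes tested and 5.50% over the 10950 genes whose mean lay within the range of the 6. Of the latter genes, 44.3% were called.

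**Figure D2:**
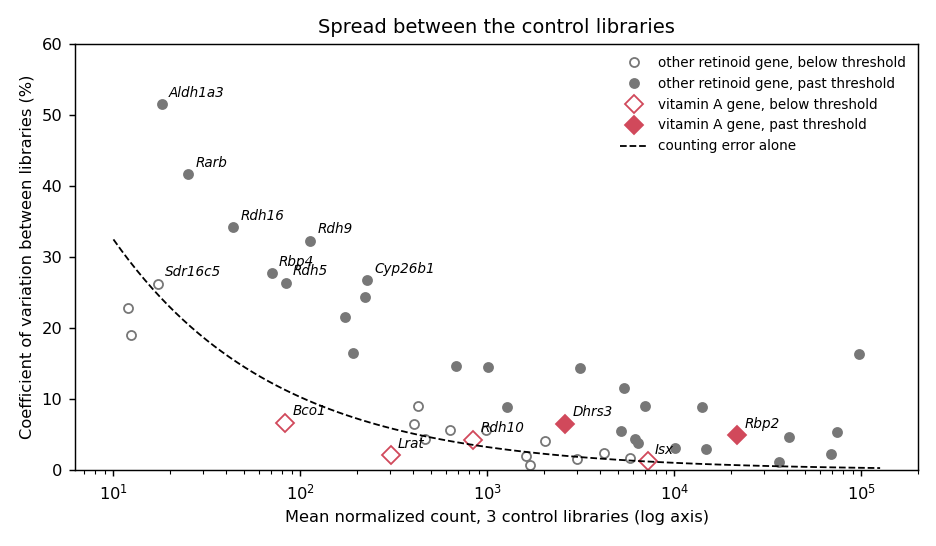
Coefficient of variation between the 3 control libraries (%) against the mean normalized count (log axis) for the 47 retinoid genes tested, with the 6 vitamin A genes as diamonds, filled where the libraries differed past the threshold, and counting error alone as a dashed line. Bco1 and Lrat lie below the line, Isx and Rdh10 close to it, and Dhrs3 and Rbp2 above it.

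Markers of cell types were read beside these genes, since Rbp2 and Isx are enterocyte genes. The 12 enterocyte markers, led by the disaccharidase gene Sis and the fatty acid-binding protein gene Fabp1, summed to 800137 (S1), 798518 (S2) and 775409 (S3) normalized counts. S3 had the lowest sum and also the lowest Rbp2. The low sum in S3 rests on Fabp1, with 181477 (S1), 194747 (S2) and 158110 (S3). Without Fabp1 the sum of the other enterocyte markers is lowest in S2. The median log2 deviation of the 12 markers in S3 from the mean of the libraries was 0.03. The 6 Paneth cell markers summed to 94264 (S1), 105138 (S2) and 117498 (S3), and the 6 goblet cell markers to 67570 (S1), 74906 (S2) and 81475 (S3). The 6 enteroendocrine markers summed to 11082 (S1), 13854 (S2) and 15188 (S3), and the 5 tuft cell markers to 576 (S1), 661 (S2) and 730 (S3). Each of these 4 sums was lowest in S1 and highest in S3, but not all of their markers followed. Muc2 (goblet), Sct (enteroendocrine) and Trpm5 (tuft) were highest in S1. Ang4 (Paneth), Neurod1 (enteroendocrine) and Avil (tuft) were lowest in S2, and Gcg (enteroendocrine) was lowest in S3. Defa24 and Defa26 (Paneth) and Gcg were highest in S2. Of these exceptions, Sct, Trpm5, Neurod1, Avil and Gcg did not pass the threshold between libraries. The sum of the 6 stem cell markers was highest in S1, with 39460 (S1), 36799 (S2) and 37472 (S3), but among these markers only Olfm4 and Ascl2 were highest there, and the 4 cycling markers lay between 34149 and 34843. The part of these shifts in the Rbp2 values was not tested. Markers of other tissues were near 0, with 0 of 3 immune markers and 1 of 4 mesenchymal markers (Vim) at a mean of 10 normalized counts or more. Col1a2 had no read in any library.

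The wider pathway was read from a list of 58 retinoid genes that includes the 6. Of these, 56 have a row and 47 reached a mean of 10 normalized counts. Between the libraries, 27 of the 41 other genes passed the threshold, against 2 of the 6 described here and 40.9% of all genes tested. The test detects smaller differences at higher counts. Apob passed with a CV of 1.12% at a mean of 36051 normalized counts, whereas Isx did not with 1.26% at 7204. No share at matched counts was taken for the other genes, so these shares do not rank the groups by spread. Levels per kb of the other genes depend on the length used. With the longest coding transcript in place of all exons, 14 of the 47 genes, none of them among the 6, were over 1.5 times higher, by up to 3.61 times for Fabp5 (1621 per kb), and Scarb1 had 269 per kb, Adh5 3829, Aldh1a1 17295 and Rdh13 333. Rdh13 then stood above Rdh10 (233), whereas it stood below it per kb of all exons.

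Among genes of uptake and cleavage, Bco1 had the lowest level per kb of those tested. Its paralogue Bco2, which cleaves carotenoids at another bond in mitochondria, had 1417 ± 22.4 normalized counts per kb (SD, n = 3), a mean of 43.6 ± 2.98 times the level of Bco1. Scarb1, the second known target of Isx, had 79.9 ± 11.8 per kb, and its libraries differed, with 564 (S1), 744 (S2) and 730 (S3) normalized counts. The lipid uptake receptor gene Cd36 had 353 ± 31.5 per kb. The lipase genes Pnliprp2 and Lipe had 1985 and 347 per kb. The pancreatic lipase gene Pnlip had 0 reads in S1 and S3 and 2.14 normalized counts in S2.

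Rbp2 was by far the highest of the retinoid-binding protein genes described here. Its relative Rbp7 had 594 ± 53.6 normalized counts per kb, so that Rbp2 exceeded it by a factor of 37.7 (S1), 43.4 (S2) and 33.8 (S3). The plasma carrier genes Rbp4 and Ttr had 52.3 and 162 per kb, and Fabp5, which can carry retinoic acid, had 448 per kb. The retinoic acid-binding proteins Crabp1 and Crabp2 had no read in S1 and S3, and 2.14 and 1.07 normalized counts in S2. The absence of reads allows up to 3 reads in each of S1 and S3, as a 1-sided 95% limit. Stra6, the receptor for circulating retinol-binding protein, had no read in any library, and its relative Stra6l had 42.1 per kb.

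Retinol can be esterified by LRAT, which uses retinol on its binding protein, or by the acyltransferase DGAT1, which also makes triglycerides. Dgat1 had 4813 ± 144 normalized counts per kb (SD, n = 3) and exceeded Lrat by a factor of 85.4 (S1), 85.4 (S2) and 83.4 (S3). The factor was 137 with the longest coding transcript as the length. The chylomicron genes Apob, Mttp and Apoa4 had 2587, 11098 and 53795 per kb, all above Lrat.

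Of the genes for retinol dehydrogenases, Rdh10 took a middle place. The alcohol dehydrogenase gene Adh1 was the highest with 32954 ± 1754 normalized counts per kb, above Rdh10 by a factor of 164 ± 2.17 (SD, n = 3). Rdh11, at 2924 per kb, exceeded Rdh10 by a factor of 14.5 ± 0.558, and Rdh7, at 3082, by a factor of 15.3 ± 0.326. Adh4 had 3690 per kb, Adh5 1136, Rdh14 424 and Rdh13 153. Rdh5, Rdh9, Dhrs9 and Adh7 lay between 29.7 and 58.4 per kb, and Rdh1, Rdh12, Rdh16 and Sdr16c5 between 3.17 and 10.995. Rdh1, Rdh7, Rdh9 and Rdh16 are close relatives whose shared reads were divided by estimation, so their levels and their differences between libraries are uncertain.

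Of the retinal reductase genes, Dhrs4 had 3645 ± 138 normalized counts per kb and exceeded Dhrs3 by a factor of 4.28 (S1), 3.88 (S2) and 4.14 (S3). Of the genes listed as retinal dehydrogenases, Aldh1a1 had 8260 ± 389 per kb, Aldh1a7 3375 and Aldh1a3 3.92. Aldh1a2 and Aldh8a1 had no more than 2.84 normalized counts in any library. The listing of Aldh1a7 does not show that its enzyme oxidises retinal. Aldh1a1 exceeded Rdh10 per kb by a factor of 41.1 ± 1.02 (SD, n = 3), and by 74.1 with the longest coding transcript as the length. Aldh1a1 and Aldh1a7 are close relatives, so the split of reads between them and their differences between libraries are uncertain. The saturase gene Retsat had 3957 ± 353 per kb.

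Of the nuclear receptor genes on the list, Rxra had 1061 ± 18.6 normalized counts per kb, Rxrb 424, Rara 226, Rarg 109 and Rarb 4.76. Isx and Dhrs3 stood above Rara per kb, and Lrat and Bco1 stood below Rarg. Of the genes for retinoic acid breakdown, Cyp26b1 had 42.7 ± 11.4 per kb and Cyp26a1 no read in any library.

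**Figure D3:**
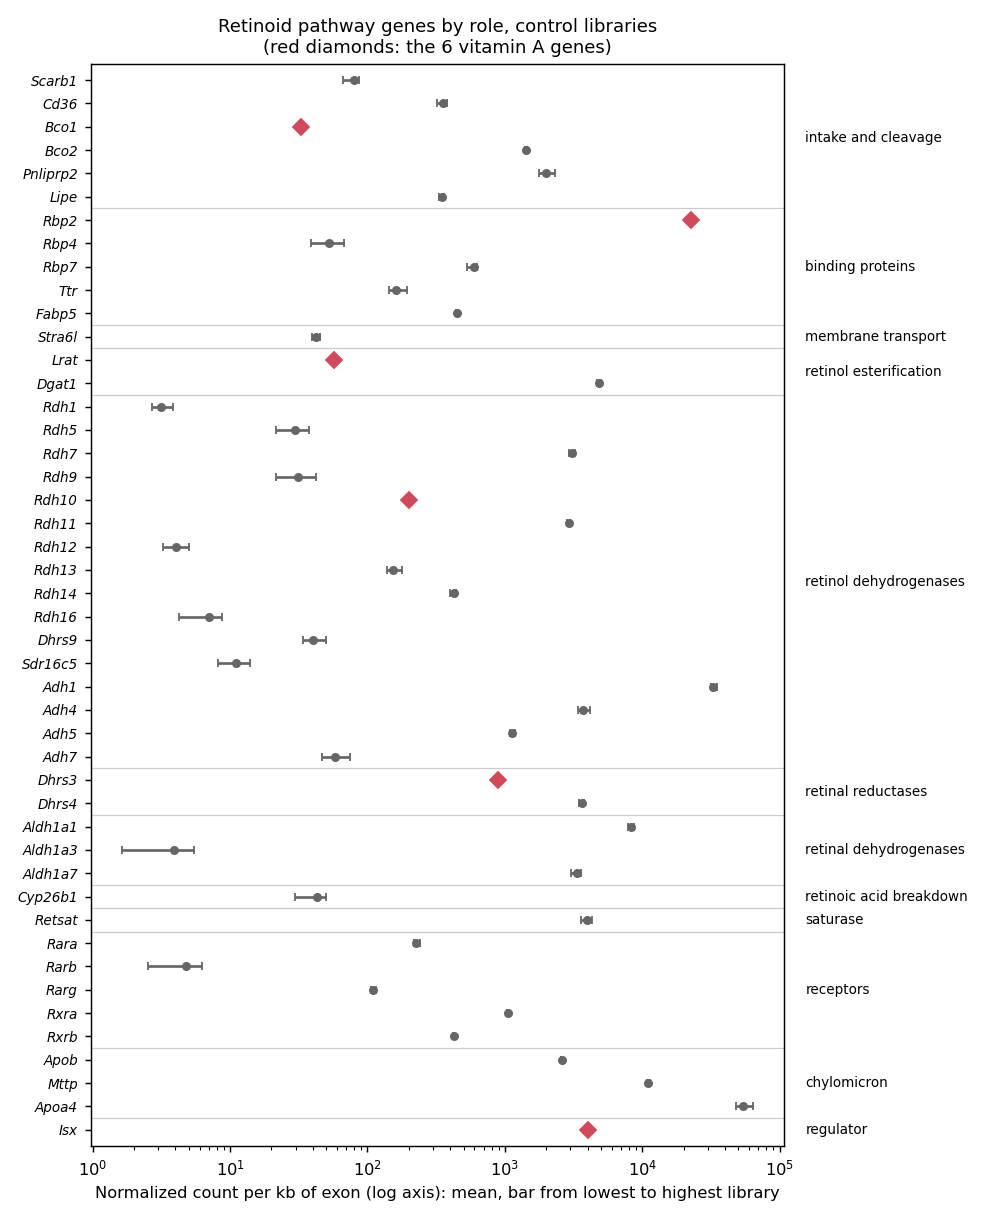
Normalized counts per kb of exon (log axis) of the retinoid genes whose mean reached 10 normalized counts (46 of the 47, without Tgm2, a gene listed only for its response to retinoic acid), grouped by role, with the mean as a point and a bar from the lowest to the highest control library. The 6 vitamin A genes are the red diamonds, of which Rbp2 is the highest and Bco1 the lowest.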

How the data were processed

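Small intestinal organoid RNA was sequenced by the authors as paired-end reads from a stranded poly(A) kit. Per the submitters' processing notes, the reads were mapped with Bowtie2 2.2.9 (mm9 is named as the build) and quantified with RSEM 1.2.31, and DESeq2 1.14.1 was used. The deposited signal is 1 value per gene and library, named normalized counts by the authors. In each control library 100% of values were whole multiples (within 0.01) of the smallest value above 0, which was taken as 1 read. Of 21256 rows, 1 repeated identifier was left out. The other 3 value columns (number of columns not used: 3) have names that match no sample title, so the planned comparison of genotypes by limma and its alternatives, and the search for genes with a similar pattern, were not run.

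Symbols were found for 21213 of 21255 identifiers. Exon lengths came from GENCODE release M21 (GRCm38), so lengths may differ from those of the mm9 annotation used by the authors. Whether the counting used strand is not given in the sources used here. Rbp2 overlaps Gm37113 on the same strand, which had 11.1 normalized counts. Bco1 overlaps the processed pseudogene Gm20694 on the same strand, and Lrat overlaps Rbm46os on the opposite strand. Neither Gm20694 nor Rbm46os has a row in the deposited table. Tests were chi-square tests over the 13803 genes whose mean reached 10 normalized counts, checked on simulated reads, with Benjamini-Hochberg adjustment. Named were the 6 genes, Cebpa and the retinoid list genes with such a mean, besides genes of that list with few or no reads, markers, Xist and the Y-linked genes, named after their values were seen. Of the retinoid list, 1 gene is not reported here and was left out of its counts. The genes and lists were chosen with earlier results of these data known. Python 3.11.15, numpy 2.4.6, pandas 2.3.3, scipy 1.17.1 and matplotlib 3.10.9 were used.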

Additional observations from a re-analysis of the deposited data

How the results depend on the processing

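No label pairs control and C/EBPα KO samples. No comparison of genotypes was run, because the remaining value columns have names that match no title. The alternatives planned for the comparison of genotypes were not run for the same reason. Upper quartile scaling and scaling to the same total moved the control means of the 6 genes by -0.0131% to 0.0079%, and such a scaling hardly moves a mean over the libraries by construction. Leaving out 1 control library moved them by -3.63% to 3.16%, within the SD in 18 of 18 cases, which a mean of 3 values makes likely by construction. The count of the 6 genes that differed between libraries was 2 under both scalings and with a mean of at least 1 or 50, the latter filters chosen after seeing the data. Of all genes, 40.9% and 41.3% were called under the scalings and 33.5% and 45.2% with these filters. Leaving out 1 library gave 1 to 2 of the 6 genes. Over all genes it gave 2321 (without S1) to 4113 genes against 5645, and fewer libraries also make a weaker test. With the longest coding transcript as the length, also chosen after seeing the data, levels per kb were 27074 for Rbp2, 1116 for Dhrs3, 233 for Rdh10 and 35.4 for Bco1, and those of Isx and Lrat were the same. Depth limits Bco1, which rests on 77 to 82 reads per library.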

Other observations

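Genes reported to respond to retinoic acid were read beside Isx, Dhrs3 and Lrat, and the description was chosen after the values were seen. Of the 11 genes on this list, 6 reached a mean of 10 normalized counts, and 3 of these differed between the control libraries past the threshold (Cyp26b1, Rarb and Dhrs3), against 40.9% of all genes tested. Cyp26b1, the retinoic acid hydroxylase gene, had 158 (S1), 258 (S2) and 269 (S3) normalized counts. Rarb, a receptor gene that retinoic acid induces, had 13.2 (S1), 33.1 (S2) and 28.8 (S3). Cyp26b1 was lowest in S1. Rarb rests on 14 (S1), 31 (S2) and 25 (S3) reads. Its exact 95% intervals in S1 and S3 overlap. Such an overlap is no test of a difference, and no order of S1 and S3 is read for Rarb. Aldh1a3, which makes retinoic acid and is not on this list, had 7.57 (S1), 21.4 (S2) and 25.3 (S3) and passed the threshold. Aldh1a3 rests on 8 (S1), 20 (S2) and 22 (S3) reads, and its exact 95% intervals in S1 and S2 overlap. Isx and Lrat did not pass the threshold, and the exact 95% intervals of the libraries overlap for each of them. No order of the libraries is therefore read for Isx or Lrat. Dhrs3 was highest in S2, and its intervals in S1 and S3 overlap. Tgm2, also on the list, had 4131 (S1), 4184 (S2) and 4327 (S3) and did not pass the threshold. S1 is the library with the low Xist and high Y-linked values. The marker sums of Paneth, goblet, enteroendocrine and tuft cells are lowest in it too, but not all of their markers are. Muc2, Sct and Trpm5 were highest in S1, Ang4, Neurod1 and Avil lowest in S2, and Gcg lowest in S3. The part of sex or of these cell types in the retinoid values was not tested. Of the 29 retinoid genes called, 14 were lowest in S1 and 10 highest, against 41.8% and 37.3% of all genes called.

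Fabp2, the fatty acid-binding protein gene of enterocytes, lay close to its relative Rbp2. The ratio of Fabp2 to Rbp2 per kb was 1.05 (S1), 1.08 (S2) and 1.07 (S3), so that both were lowest in S3. With the longest coding transcript as the length the ratio was 0.889, so the order of the 2 genes depends on the length used.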
